A study of Mus musculus with 9 samples.

Results

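The genes described here are the machinery of heterochromatin and DNA methylation that works with KRAB zinc finger proteins: Trim28, Setdb1, Mphosph8, Cbx1, Cbx3, Cbx5, Dnmt1, Uhrf1, Dnmt3a and Dnmt3b. They were chosen by name, with earlier results of these data known. All 10 were found among the 35498 genes of the tables, and all 10 passed the filter on low counts. In GRCm38 they lie apart, Trim28 at chr7:12999114-13031035, Setdb1 at chr3:95323525-95357202, Mphosph8 at chr14:56668248-56697430, Cbx1 at chr11:96789127-96808640, Cbx3 at chr6:51470360-51483704 and Cbx5 at chr15:103191544-103239816. Dnmt1 lies at chr9:20907209-20959888, Uhrf1 at chr17:56303321-56323486, Dnmt3a at chr12:3806007-3914443 and Dnmt3b at chr2:153649450-153687730. RNA was measured in whole cortical tissue of C57Bl/6 mouse embryos at E13.5, in 3 libraries per genotype. The double knockout (DKO) was labelled Smarca1 -/-; Cre +/-, the Smarca1 knockout (Smarca1 KO) Smarca1 -/-; Cre -/-, and the wild type (WT) Smarca1 +/+; Cre -/-. Smarca5 (SNF2H) and Smarca1 (SNF2L) are the ATPases of the ISWI remodelling complexes, which slide and space nucleosomes, and the design text names DKO as lacking both. DKO and Smarca1 KO thus share the Smarca1 -/- genotype. The sources used here do not give the Cre driver, the Smarca5 alleles or say that replicates came from separate embryos. The p-values therefore speak only of variation among these libraries, part or all of which could be technical.

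KRAB zinc finger proteins bind retrotransposons and some genes and recruit Trim28 (KAP1), a scaffold. Trim28 in turn brings Setdb1, which trimethylates histone H3 at lysine 9, and the HP1 proteins, which bind that mark. At cytosine-guanine (CpG) sites, Uhrf1 recognises half-methylated DNA behind the replication fork and guides Dnmt1, the maintenance methyltransferase, while Dnmt3a and Dnmt3b methylate new sites. In the developing cortex Dnmt1 and Uhrf1 are known from dividing progenitors, and Dnmt3a is known for the methylation that neurons gain as they mature.

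The promoters of Trim28, Setdb1 and Dnmt3a, the genes called in DKO versus WT, are shown to display how many CpG sites, the substrate of Dnmt1, Dnmt3a and Dnmt3b, lie ahead of them. Each run is the 250 bases before a RefSeq start (GRCm38.p6), 5′ to 3′ on the gene's strand, with CG in capitals. The second Dnmt3a run precedes the internal start of its shorter coding form.
Trim28, chr7:13023902-13024151, plus strand: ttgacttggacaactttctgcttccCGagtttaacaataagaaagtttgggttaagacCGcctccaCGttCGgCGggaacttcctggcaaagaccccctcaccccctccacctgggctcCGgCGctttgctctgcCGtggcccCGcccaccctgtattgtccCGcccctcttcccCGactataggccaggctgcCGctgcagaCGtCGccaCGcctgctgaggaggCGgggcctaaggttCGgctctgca
Setdb1, chr3:95357203-95357452, minus strand: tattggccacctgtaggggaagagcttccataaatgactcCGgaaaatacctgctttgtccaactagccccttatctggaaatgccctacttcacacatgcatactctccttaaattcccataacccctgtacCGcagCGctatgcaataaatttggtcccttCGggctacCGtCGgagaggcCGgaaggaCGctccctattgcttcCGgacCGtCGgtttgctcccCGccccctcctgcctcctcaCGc
Dnmt3a, first start, chr12:3806730-3806979, plus strand: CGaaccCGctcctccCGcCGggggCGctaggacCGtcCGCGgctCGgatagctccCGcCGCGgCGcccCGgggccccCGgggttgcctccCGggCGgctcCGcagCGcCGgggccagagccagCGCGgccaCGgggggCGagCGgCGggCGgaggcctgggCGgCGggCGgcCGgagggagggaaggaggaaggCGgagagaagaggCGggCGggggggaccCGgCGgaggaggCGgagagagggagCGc
Dnmt3a, internal start, chr12:3891494-3891743, plus strand: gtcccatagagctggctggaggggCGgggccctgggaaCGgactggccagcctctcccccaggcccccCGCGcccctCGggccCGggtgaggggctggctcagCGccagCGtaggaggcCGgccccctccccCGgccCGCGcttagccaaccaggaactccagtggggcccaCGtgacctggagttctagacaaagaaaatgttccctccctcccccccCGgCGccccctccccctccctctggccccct
These runs held 17, 13, 38 and 15 CG in the order shown. Over 17 windows of the 10 genes the median was 19 (from 2 to 40), against 6 over all 32851 promoter windows of the table. Some windows of 1 gene overlap. The GC box GGGCGG, searched on both strands, was in 14 of the 17 windows (82.4%) and in 32.7% of all windows. The CCAAT box was in 7 of 17 (41.2%) and in 33.8% of all. An E2F-type motif, TTTGGCGC or TTTCCCGC, was in 1 window, of Cbx3, and in 1.3% of all. These are matches of letters in a window, and no factor's binding was measured.

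The libraries held 27466046 to 46007527 counts summed over genes. Smarca5 was at 36.9, 31.7 and 29.7 TPM in DKO, against 92.0, 87.1 and 85.7 TPM in Smarca1 KO and 110.6, 109.6 and 104.4 TPM in WT, in the direction of the labels. TPM is a level per transcript length, scaled to a fixed total in each library. Smarca1 RNA was at 18.2 to 18.9 TPM in DKO, 16.2 to 21.2 TPM in Smarca1 KO and 17.8 to 17.9 TPM in WT, and the deleted exons are not given, so it does not check the Smarca1 labels. Emx1, a transcription factor that marks the dorsal cortex, was at 72.3 to 81.3 TPM in DKO and 86.6 to 104.7 TPM in Smarca1 KO, against 115.5 to 120.2 TPM in WT, so this marker of the labelled tissue was present in every library and differed between the groups. Adjusted p-values below are from edgeR's quasi-likelihood test, adjusted by the Benjamini-Hochberg method over 15773 genes, and a gene is called under 0.05. A log2 ratio is the fitted log2 fold change, given ± its SE.

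Most of the machinery was at slightly lower RNA levels in both Smarca1 -/- groups than in WT, and the levels of DKO and Smarca1 KO were close to each other. Summed over the 10 genes, the level was 1746, 1719 and 1694 TPM in DKO and 1745, 1788 and 1669 TPM in Smarca1 KO, against 1975, 1901 and 1942 TPM in WT. All 6 Smarca1 -/- libraries were below all 3 WT libraries. For 7 of the 10 genes taken singly this also held in TPM, against 8.07% of all tested genes. The 3 others were Cbx3, Mphosph8 and Dnmt3b. None of the 10 was above WT in all 6, against 4.89% of tested genes. Against WT, 3 genes fell in DKO (30% of the list, against a background of 6.35% of tested genes called lower) and none rose, against 5.61%. The median log2 ratio of the 10 genes was −0.155, and that of all tested genes 0.008. DESeq2 called 6 of the 10 in this comparison, all lower, against 9.60% of genes called lower and 8.71% called higher by DESeq2 among those edgeR tested. With the level of Y-linked genes as a covariate none of the 3 was called (adjusted p = 0.754 for Trim28, 0.667 for Setdb1 and 0.727 for Dnmt3a). Nearly all calls among all tested genes were lost with it as well. The R2 of Y-linked level on group was 0.771, so much of any effect of sex and of genotype cannot be told apart. In bulk tissue, fewer cells of a type and less RNA per cell cannot be told apart.

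**Figure D1:**
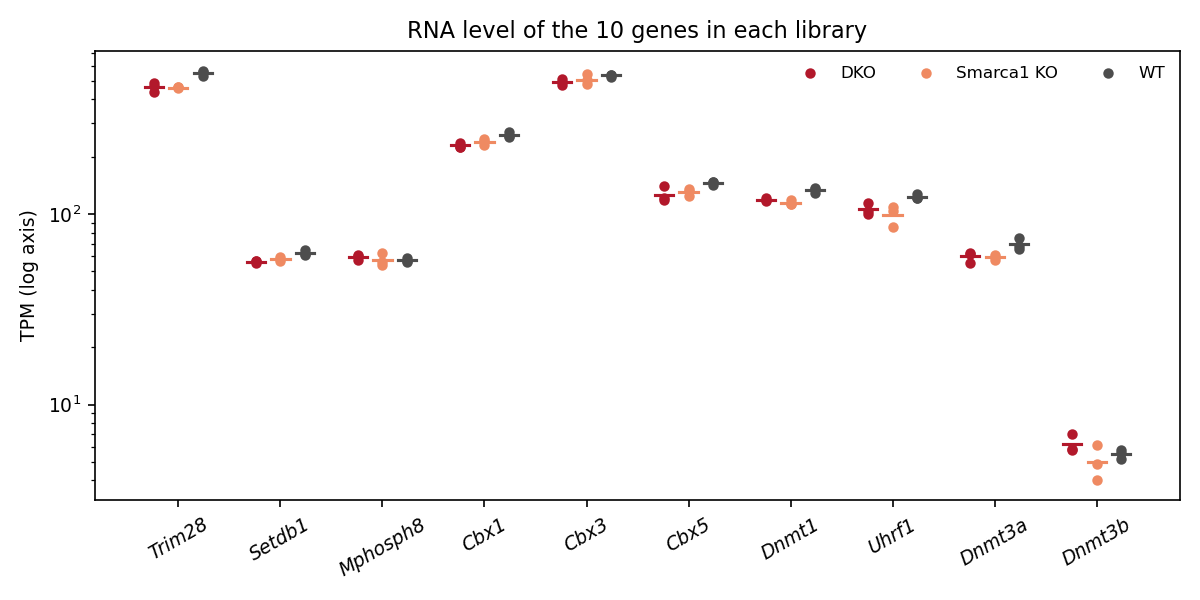
RNA level (TPM, log axis) of the 10 genes in each library, with points for the libraries and a bar for the mean of the 3 libraries of DKO, Smarca1 KO and WT. The genes span from Dnmt3b, at 4.03 to 6.998 TPM, to Cbx3 and Trim28, at 436.7 TPM or more in every library.

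In DKO the order of mean levels was Cbx3, Trim28, Cbx1, Cbx5, Dnmt1, Uhrf1, Dnmt3a, Mphosph8, Setdb1 and Dnmt3b. Within DKO the libraries of 3 neighbouring pairs overlapped, namely Cbx3 and Trim28, Cbx5 and Dnmt1, and Dnmt3a and Mphosph8. In WT the order began with Trim28 and Cbx3, which overlapped, and Setdb1 stood above Mphosph8, without overlap. In Smarca1 KO the overlapping neighbours were Dnmt3a, Setdb1 and Mphosph8. Dnmt3b was last in all 3 groups.

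Trim28, the corepressor scaffold, had the smallest p of the 10 genes in DKO versus WT. It was at 436.7, 470.6 and 486.7 TPM in DKO and 463.2, 463.1 and 456.3 TPM in Smarca1 KO, against 555.5, 529.1 and 562.3 TPM in WT. The WT libraries lay above all others. Trim28 fell in DKO versus WT to 0.85 of the WT level (log2 ratio −0.23 ± 0.046, adjusted p = 0.015). Smarca1 KO versus WT gave an estimate of nearly the same size that was not called (log2 ratio −0.23 ± 0.046, adjusted p = 0.0801). Between DKO and Smarca1 KO it was −0.01 ± 0.046 (adjusted p = 0.967). Trim28 was no longer called when DKO replicate 2 or 3 was left out (adjusted p = 0.0513 and 0.0566), nor without WT replicate 2 or 3 (adjusted p = 0.0513 and 0.0627).

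Setdb1, the H3K9 methyltransferase that Trim28 recruits, was at 56.8, 56.5 and 55.4 TPM in DKO and 57.8, 56.5 and 59.7 TPM in Smarca1 KO, against 64.4, 61.4 and 60.7 TPM in WT. Summed over its transcripts, the Smarca1 -/- and WT libraries did not overlap, by a narrow margin. Its coding form of 1308 codons was estimated at 42.8, 43.5 and 42.3 TPM in DKO, against 47.3, 45.6 and 43.7 TPM in WT. These did not overlap, also narrowly. In Smarca1 KO this form was at 42.05, 40.5 and 45.1 TPM, which overlapped WT. Setdb1 fell in DKO versus WT (log2 ratio −0.14 ± 0.034, adjusted p = 0.0309). The log2 ratio of Smarca1 KO versus WT was −0.087 (adjusted p = 0.224) and that of DKO versus Smarca1 KO −0.050 (adjusted p = 0.488). Setdb1 was no longer called when DKO replicate 2 or 3 was left out (adjusted p = 0.0839 and 0.104), nor without WT replicate 1, 2 or 3 (0.115, 0.097 and 0.0733), without the filter on low counts (0.0575) and with effective-length offsets (0.0567). With a replicate block the adjusted p was 0.0539.

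Mphosph8 encodes the chromodomain protein of the HUSH complex, which binds H3K9 methylation and silences integrated elements. It was at 60.7, 60.4 and 57.3 TPM in DKO and 62.6, 53.7 and 56.4 TPM in Smarca1 KO, against 55.9, 59.0 and 56.4 TPM in WT. The 3 groups overlapped. Its log2 ratio was 0.07 ± 0.062 in DKO versus WT (adjusted p = 0.474).

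The 3 HP1 genes differed in level more than they differed between genotypes. HP1 proteins bind methylated H3K9 through a chromodomain and pair through a chromoshadow domain. Cbx3 (HP1 gamma) made up 58.1% ± 0.51 of their summed TPM in DKO, 57.8% ± 0.73 in Smarca1 KO and 56.8% ± 0.58 in WT (SD, n = 3 each). Cbx1 (HP1 beta) made up 27.0% in DKO, 27.3% in Smarca1 KO and 27.6% in WT, and Cbx5 (HP1 alpha) 14.9%, 14.9% and 15.5% in the same order of groups. None of the 3 was called in any comparison by edgeR.

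Cbx5 was at 140.9, 120.9 and 118.0 TPM in DKO and 132.4, 135.2 and 124.0 TPM in Smarca1 KO, against 148.1, 142.4 and 146.6 TPM in WT. DKO replicate 1 lay near WT and the other DKO libraries well below. Its log2 ratio was −0.19 ± 0.060 in DKO versus WT (adjusted p = 0.0696), and without DKO replicate 1 it was called (−0.24, adjusted p = 0.0306), as it was without Smarca1 KO replicate 3 (adjusted p = 0.0271). Cbx1 was at 236.9, 226.1 and 224.5 TPM in DKO and 242.7, 247.5 and 229.7 TPM in Smarca1 KO, against 269.3, 253.3 and 256.7 TPM in WT. Its log2 ratio in DKO versus WT was −0.17 ± 0.048 (adjusted p = 0.0534), and it was called without Smarca1 KO replicate 2 or 3 (adjusted p = 0.0316 and 0.0152). Cbx3 was at 513.8, 491.8 and 473.0 TPM in DKO and 503.0, 543.0 and 479.6 TPM in Smarca1 KO, against 539.1, 535.1 and 527.3 TPM in WT. Smarca1 KO replicate 2 exceeded every WT library. The log2 ratio of Cbx3 in DKO versus WT was −0.10 ± 0.062 (adjusted p = 0.292). Of the 31-mers of Cbx3, 8.66% also occur in other genes, its processed pseudogenes among them, of which Cbx3-ps6 received up to 229 counts in a library.

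Dnmt1, the maintenance methyltransferase, was at 116.5, 121.3 and 118.9 TPM in DKO and 113.3, 118.3 and 112.3 TPM in Smarca1 KO, against 134.9, 128.6 and 136.8 TPM in WT. The 6 Smarca1 -/- libraries all lay below WT. Its log2 ratio was −0.14 ± 0.042 in DKO versus WT, just outside the threshold at adjusted p = 0.0524, and −0.20 ± 0.042 in Smarca1 KO versus WT (adjusted p = 0.0914). In DKO versus WT it was called without Smarca1 KO replicate 2 or 3 (adjusted p = 0.0417 and 0.0295). Between DKO and Smarca1 KO the log2 ratio was 0.05 (adjusted p = 0.563).

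Uhrf1, the partner that brings Dnmt1 to replicated DNA, varied most within a group in Smarca1 KO. Its level was at 114.0, 103.6 and 99.7 TPM in DKO and 104.0, 108.5 and 85.8 TPM in Smarca1 KO, against 127.5, 121.0 and 122.0 TPM in WT. Smarca1 KO replicate 3 was the lowest library. The log2 ratio was −0.21 ± 0.11 in DKO versus WT (adjusted p = 0.201), and −0.33 ± 0.11 in Smarca1 KO versus WT (adjusted p = 0.171). Without Smarca1 KO replicate 3, Uhrf1 was called in DKO versus WT (log2 ratio −0.22, adjusted p = 0.0302). Processed pseudogenes share 24.2% of the 31-mers of Uhrf1, but received at most 2 counts in a library.

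Dnmt3a, the de novo methyltransferase of maturing neurons, was at 62.5, 62.0 and 55.4 TPM in DKO and 59.7, 57.7 and 60.7 TPM in Smarca1 KO, against 75.2, 65.5 and 67.6 TPM in WT. All 6 Smarca1 -/- libraries lay below WT, DKO replicate 3 lowest. Dnmt3a fell in DKO versus WT (log2 ratio −0.19 ± 0.045, adjusted p = 0.0251). For Smarca1 KO versus WT it was at −0.17 ± 0.045 (adjusted p = 0.14). The call was lost without DKO replicate 3 (adjusted p = 0.0819), without WT replicate 1, 2 or 3 (0.0917, 0.059 and 0.0841) and with effective-length offsets (0.0609).

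Dnmt3b, the de novo enzyme of early embryos, was the least abundant of the 10 and, with Mphosph8, had a positive estimate in DKO versus both other groups. It was at 6.998, 5.88 and 5.75 TPM in DKO and 6.13, 4.03 and 4.85 TPM in Smarca1 KO, against 5.21, 5.81 and 5.60 TPM in WT. The 3 groups overlapped. Its log2 ratio was 0.36 ± 0.14 in DKO versus Smarca1 KO (adjusted p = 0.198) and 0.25 ± 0.14 in DKO versus WT (adjusted p = 0.242). Dnmt3a made up 90.6% ± 0.71 of the summed TPM of both genes in DKO, 92.2% ± 1.43 in Smarca1 KO and 92.6% ± 0.85 in WT (SD, n = 3 each). The nearby gene Dnmt3c, which shares 13.48% of the 31-mers of Dnmt3b, had at most 4 counts in a library.

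**Figure D2:**
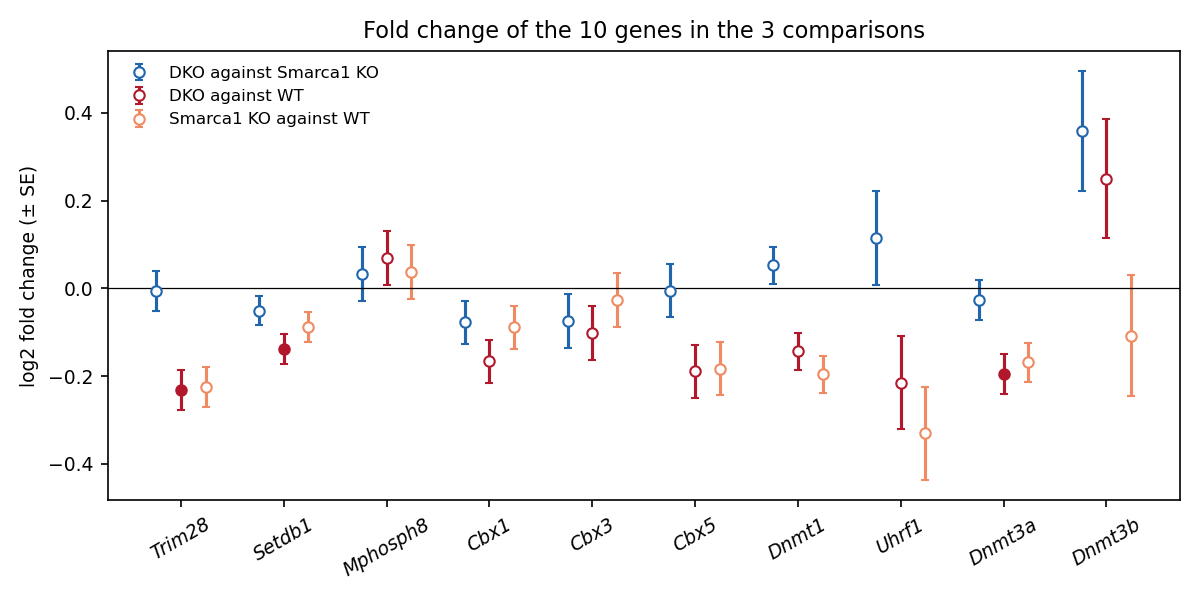
Log2 ratio (± SE) of the 10 genes in DKO versus Smarca1 KO, DKO versus WT and Smarca1 KO versus WT. Filled points are called at an adjusted p under 0.05, which were Trim28 (−0.23), Setdb1 (−0.14) and Dnmt3a (−0.19) in DKO versus WT.

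The 3 comparisons share libraries in pairs, so their values are given side by side and not as separate support. DKO versus Smarca1 KO holds the Smarca1 genotype constant. There edgeR and DESeq2 each called 0 of the 10 genes. The background was 4.39% of tested genes called by edgeR (1.73% higher and 2.66% lower), and by DESeq2 2.99% higher and 4.19% lower. At an unadjusted p under 0.05, 1 of the 10 (Dnmt3b) was higher and none lower, against 8.84% and 9.57% of tested genes. In either direction it was 1 of the 10, against 18.4% of tested genes. In counts per library total (CPM), Setdb1 was lower without overlap and none was higher, against 10.7% and 9.72%. The median log2 ratio of the 10 was −0.006.

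Smarca1 KO and WT differed by similar amounts to DKO and WT, with fewer calls in the table as a whole. In that comparison edgeR called 0 of the 10 and 0.336% of all genes (0.139% higher and 0.197% lower), and DESeq2 called 4 of the 10, all lower, against its background of 3.33% lower and 1.83% higher. At an unadjusted p under 0.05, 6 of the 10 were lower and none higher, against 9.55% and 9.33% of tested genes. By CPM, 6 of the 10 were lower without overlap and none higher, against 13.6% and 12.5%. For DKO versus WT, 6 of the 10 were lower at an unadjusted p under 0.05, against 14.9% of tested genes, and none higher, against 16.1%. By CPM, 8 were lower without overlap, against 20.4%, and none higher, against 20.9%. Of all tested genes, 12.0% were called there.

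Transcript estimates showed which coding forms made up these levels. Salmon divides reads among overlapping transcripts, so the shares are estimates, and no test was made. The 908-codon form of Dnmt3a, whose transcripts start near the first promoter shown, averaged 38.0 ± 1.82 TPM in DKO and 38.0 ± 1.34 TPM in Smarca1 KO, against 43.9 ± 2.58 TPM in WT (SD, n = 3 each). The 689-codon form, known as Dnmt3a2 and started inside the gene, averaged 16.9 ± 2.71 TPM in DKO and 16.9 ± 1.01 TPM in Smarca1 KO, against 20.7 ± 0.62 TPM in WT. Both forms were lower in the Smarca1 -/- groups, and the longer form made up 61.6% to 65.8% of the gene in every library.

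For Dnmt1, the 1620-codon form was at 66.3, 67.4 and 69.2 TPM in DKO and 67.4, 66.2 and 59.98 TPM in Smarca1 KO, against 79.5, 76.2 and 77.3 TPM in WT. The 1501-codon forms were at 40.3, 46.1 and 40.9 TPM in DKO and 38.6, 41.6 and 44.8 TPM in Smarca1 KO, against 45.9, 40.7 and 46.2 TPM in WT. The longer form separated WT from the other groups and the shorter forms overlapped. Most of the shorter estimate lay on Dnmt1-202 (33.3% of the gene on average), annotated to start at chr9:20959888. The longer form, Dnmt1-201, is annotated to start at chr9:20952979. The contrast rests on how Salmon divided reads between them, and use of the 2 starts was not tested. Of the Cbx1 estimate, 62.5% on average lay on Cbx1-204, which is annotated as a nonsense-mediated decay transcript. The 185-codon form of Cbx1 averaged 71.1 ± 3.64 TPM in DKO and 75.2 ± 3.0 TPM in Smarca1 KO, against 83.6 ± 5.76 TPM in WT (SD, n = 3 each). Dnmt3b forms varied within groups. Its 839-codon forms were listed at 0 in DKO replicates 1 and 3 and in Smarca1 KO replicate 2, with 0.970, 1.55 and 0.893 TPM in the other Smarca1 -/- libraries and 1.65, 1.23 and 0.944 TPM in WT. Its 860-codon forms were at 1.37, 1.26 and 1.22 TPM in DKO and 0.725, 0.737 and 1.09 TPM in Smarca1 KO, against 0.783, 0.833 and 0.902 TPM in WT.

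**Figure D3:**
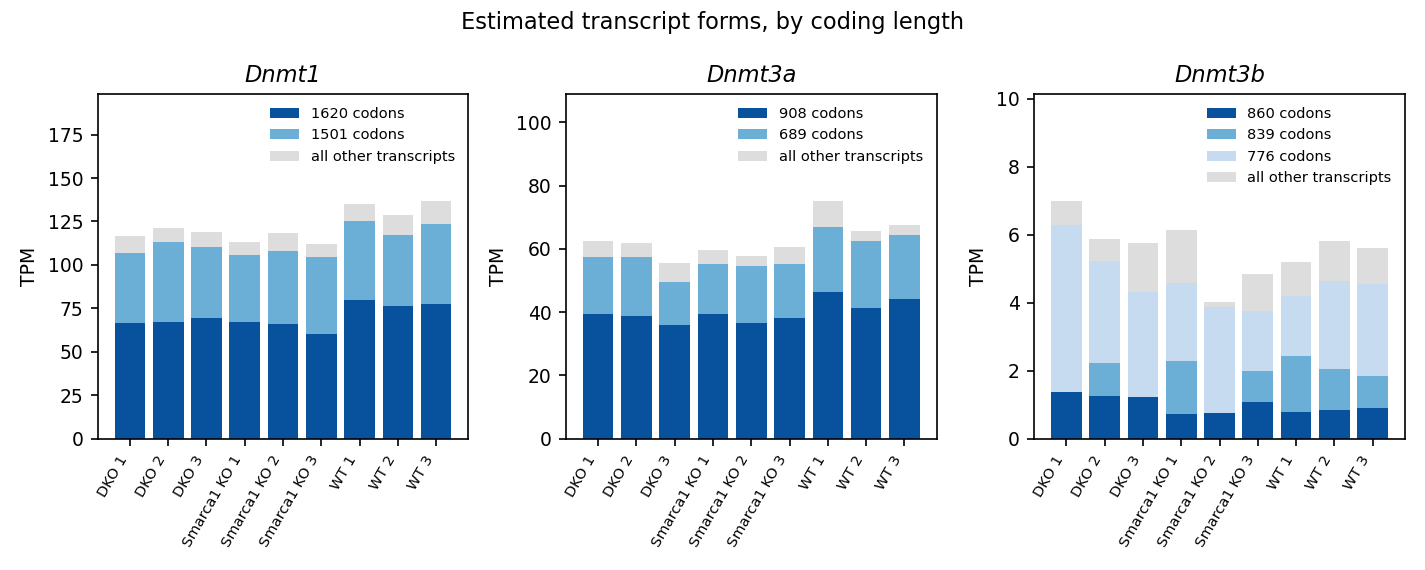
Estimated TPM of Dnmt1, Dnmt3a and Dnmt3b in each library, split by the number of coding codons of the transcripts, with all other transcripts in grey. The 1620-codon form of Dnmt1 was at 59.98 to 69.2 TPM in the 6 Smarca1 -/- libraries and 76.2 to 79.5 TPM in WT.

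Of 26 genes of S phase and replication, all 26 had a negative log2 ratio versus WT in both DKO and Smarca1 KO. Their median was −0.176 in DKO and −0.251 in Smarca1 KO, and that of all tested genes 0.008 and 0.010. Both comparisons share the WT libraries. In DKO versus WT 2 of the 26 fell, Tyms, which makes thymidylate (log2 ratio −0.38, adjusted p = 0.0367), and Rfc3, a clamp loader subunit (−0.20, adjusted p = 0.0495). That is 7.69% of the list, near the 6.35% of all tested genes called lower. Between Smarca1 KO and WT edgeR called 0, with 16 of 26 lower at an unadjusted p under 0.05, against 9.55% of tested genes. DESeq2 called 4 there, against its background of 3.33% lower and 1.83% higher. The summed level of the list was 2444, 2239 and 2105 TPM in DKO and 2258, 2325 and 1843 TPM in Smarca1 KO, against 2553, 2476 and 2626 TPM in WT. In DKO versus Smarca1 KO edgeR called 0 of the 26, against 4.39% of tested genes. At an unadjusted p under 0.05, 2 were higher there, against 8.84%, and none lower, against 9.57%. DESeq2 called 1, against its background of 4.19% lower and 2.99% higher.

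Set against that list, Uhrf1 was nearly constant. Per 1000 TPM of the S phase list it was at 46.6, 46.3 and 47.4 TPM in DKO and 46.1, 46.7 and 46.6 TPM in Smarca1 KO, against 49.9, 48.9 and 46.5 TPM in WT. The low Smarca1 KO replicate 3 no longer stood apart on this scale. Dnmt1 was at 52.8 ± 4.58 per 1000 in DKO and 54.0 ± 6.01 in Smarca1 KO, against 52.3 ± 0.48 in WT, and Trim28 at 206.7 ± 26.5, 217.3 ± 26.4 and 215.1 ± 2.1 in the same order (SD, n = 3 each). The spread of both among Smarca1 -/- libraries exceeded the differences between the means. Mphosph8 was at 26.3 ± 1.3 per 1000 in DKO and 27.1 ± 3.77 in Smarca1 KO, against 22.4 ± 1.25 in WT. In the same order, Cbx1 averaged 101.5, 112.9 and 101.8, Cbx3 218.2, 238.8 and 209.4, and Cbx5 55.9, 61.35 and 57.1. Setdb1 averaged 24.9, 27.4 and 24.4, Dnmt3a 26.5, 28.1 and 27.2, and Dnmt3b 2.74, 2.36 and 2.17. On this scale every Smarca1 KO library lay above WT for each HP1 gene. So did every DKO library for Mphosph8 and Dnmt3b. Markers of postmitotic neurons, 12 genes, summed to 3639 to 4200 TPM in DKO and 3608 to 4677 TPM in Smarca1 KO, against 3399 to 3601 TPM in WT, with 3 of 12 called higher in DKO versus WT, against 5.61% of all genes. In Smarca1 KO versus WT edgeR called 0 of these 12, and 6 were higher at an unadjusted p under 0.05, against 9.33% of tested genes. Markers of meninges and mesenchyme, 10 genes, summed to 159.9 to 348.5 TPM in DKO and 149.9 to 324.7 TPM in Smarca1 KO, against 264.4 to 294.6 TPM in WT, with replicate 1 highest in both mutant groups.

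Some other cell markers also differed between the groups. The share of all tested genes called was 6.35% lower and 5.61% higher in DKO versus WT, and 2.66% lower and 1.73% higher in DKO versus Smarca1 KO. The 8 genes of intermediate progenitors summed to 625.2 to 652.3 TPM in DKO and 652.2 to 780.9 TPM in Smarca1 KO, against 786.8 to 825.1 TPM in WT, with 4 of 8 called lower in DKO versus WT and 3 of 8 versus Smarca1 KO. The WT libraries were the highest for this list. Radial glia, 12 genes, had 4 lower and 2 higher calls in DKO versus WT. In Smarca1 KO versus WT edgeR called 1 of these 12 lower, against 0.197% of all tested genes, and none higher. At an unadjusted p under 0.05, 8 of the 12 were lower there and 2 higher, against 9.55% and 9.33% of tested genes. Ventral interneurons had 3 of 8 called higher in DKO versus WT and microglia 4 of 8, and microglia had 2 of 8 called higher in DKO versus Smarca1 KO. Microglia genes summed to 54.5 to 70.3 TPM in DKO and 38.2 to 50.6 TPM in Smarca1 KO, against 37.9 to 38.8 TPM in WT. Blood genes had 1 of 8 called lower, and summed to 2830 to 4158 TPM in DKO and 3087 to 5403 TPM in Smarca1 KO, against 4564 to 6189 TPM in WT. Endothelium and mural cells had 0 of 8 called in DKO versus WT by edgeR, by DESeq2 and at an unadjusted p under 0.05, and meninges 0 of 10 likewise. No marker gene of these lists was at 0 in every library. The part of these cell markers in the levels of the machinery was not tested.

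**Figure D4:**
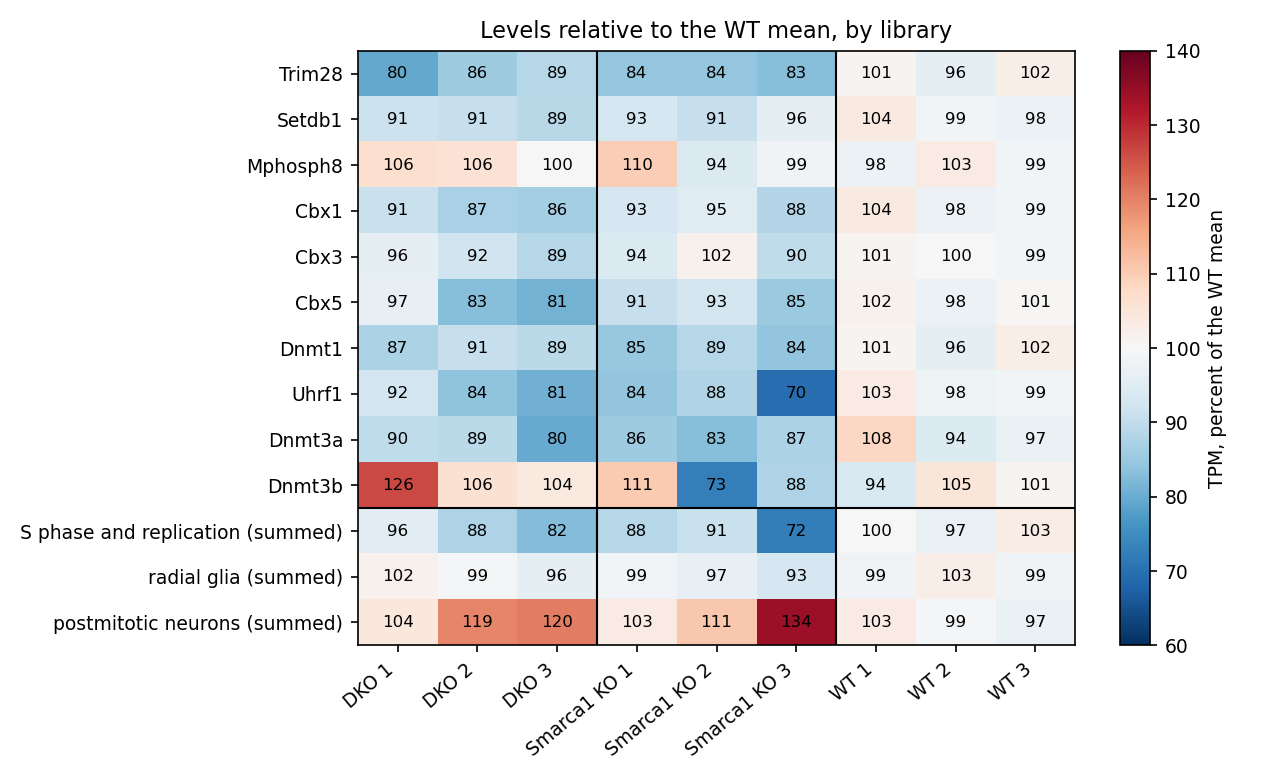
TPM of each gene and summed TPM of the lists for S phase, radial glia and postmitotic neurons in each library, as a percent of the WT mean. Trim28 was at 79.5% to 88.6% of the WT mean in the 6 Smarca1 -/- libraries, and the S phase list at 72.2% to 95.8%.

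The wider pathway was read in 6 lists of 70 genes, of which 57 passed the filter. In DKO versus WT 10 of the 57 fell and 1 rose, against 6.35% and 5.61% of all genes, with a median log2 ratio of −0.117. The 11 calls became 0 with the Y-linked covariate and 4 with effective-length offsets. Between Smarca1 KO and WT edgeR called 0 of the 57, against 0.336% of all tested genes. At an unadjusted p under 0.05 there were 18 (16 lower and 2 higher), against 9.55% lower and 9.33% higher of tested genes. DESeq2 called 7 there, against its background of 3.33% lower and 1.83% higher. In DKO versus Smarca1 KO 1 of the 57 fell (1.75%) and none rose, against 2.66% and 1.73% of all tested genes. The count in DKO versus WT was lower without any 1 DKO library or any 1 WT library (7 without DKO replicate 1, 3 without replicate 2 and 1 without replicate 3, and 1, 2 and 3 without WT replicates 1, 2 and 3) and was 21 without Smarca1 KO replicate 3.

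Of 13 HUSH and KRAB corepressor partners, 3 fell in DKO versus WT (23.1%, against 6.35% of all tested genes) and 10 were not called. Chd4, the remodelling ATPase of NuRD, was at 230.9, 222.0 and 222.8 TPM in DKO and 253.0, 242.1 and 235.7 TPM in Smarca1 KO, against 285.2, 278.9 and 276.9 TPM in WT. Its groups did not overlap, with DKO lowest and WT highest. It fell in DKO versus WT (log2 ratio −0.31 ± 0.036, adjusted p = 0.00211) and was at −0.12 in DKO versus Smarca1 KO (adjusted p = 0.0979) and at −0.19 in Smarca1 KO versus WT (adjusted p = 0.0746). Mta1, another NuRD subunit (−0.23, adjusted p = 0.0193), and the remodeller Smarcad1, which binds Trim28 (−0.15, adjusted p = 0.0313), also fell in DKO versus WT. Of 17 alternatives, Chd4 was called in DKO versus WT under 16, Mta1 under 12 and Smarcad1 under 8.

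Of 13 HP1 partners and heterochromatin proteins, 3 fell in DKO versus WT (23.1%, against 6.35% of all tested genes). They were Adnp, which joins Chd4 and HP1 (log2 ratio −0.23, adjusted p = 0.0207), and the Atrx and Daxx pair that deposits a variant histone H3 (−0.17, adjusted p = 0.038, and −0.15, adjusted p = 0.0449). Of 17 alternatives, Adnp was called under 12, Atrx under 10 and Daxx under 5. With effective-length offsets Daxx was at −0.057 (adjusted p = 0.711). In TPM the DKO and WT libraries of Atrx and Daxx overlapped, while in CPM they did not. The value of Adnp is uncertain, since 81.2% of its 31-mers occur in other genes, chiefly the overlapping model Gm20716, which held 35.5% as many counts as Adnp. The replication chaperone gene Chaf1a had the smallest p of this list in Smarca1 KO versus WT (−0.40, adjusted p = 0.0833) and Lrif1 in DKO versus Smarca1 KO (−0.42, adjusted p = 0.0771).

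Of 12 tested DNA methylation cofactors and readers, 1 fell and 1 rose in DKO versus WT, against 6.35% and 5.61% of all tested genes. Both encode zinc finger proteins that bind methylated DNA. Zbtb4 was at 4.24, 5.53 and 4.96 TPM in DKO and 6.03, 5.85 and 6.19 TPM in Smarca1 KO, against 6.77, 5.66 and 5.79 TPM in WT. It was lower in every DKO library than in the other 6. It fell in DKO versus Smarca1 KO (log2 ratio −0.41 ± 0.087, adjusted p = 0.0296) and versus WT (−0.36 ± 0.087, adjusted p = 0.0278). The first of these calls stood under 6 of 17 alternatives. It was lost with effective-length offsets (adjusted p = 0.183), with only the 2 groups (0.0986), without the 2 libraries highest in meninges genes (0.0773) and with the Y-linked covariate (0.156). It was also lost without DKO replicate 1, 2 or 3 (0.0749, 0.0856 and 0.0561), Smarca1 KO replicate 2 or 3 (0.0584 and 0.053) or WT replicate 1 or 3 (0.0547 and 0.0572). Zbtb38 rose in DKO versus WT (0.45 ± 0.11, adjusted p = 0.0301). This call and that of Zbtb4 in DKO versus WT each stood under 10 of 17 alternatives. Hells, a remodeller needed for DNA methylation, had the smallest p in Smarca1 KO versus WT (−0.39, adjusted p = 0.145).

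Of 8 H3K9 methyltransferases and cofactors, 1 fell in DKO versus WT (12.5%, against 6.35% of all tested genes). It was Atf7ip, the nuclear partner of Setdb1 (log2 ratio −0.20, adjusted p = 0.0377), and the call stood under 9 of 17 alternatives. Wiz, a partner of the methyltransferases Ehmt1 and Ehmt2, had the smallest p in Smarca1 KO versus WT (−0.20, adjusted p = 0.0982) and Prdm2 in DKO versus Smarca1 KO (0.12, adjusted p = 0.266). Of 7 genes of DNA demethylation, 1 fell in DKO versus WT (14.3%, against 6.35% of all tested genes). This was Mbd4, a glycosylase of mismatches at CpG sites (−0.29, adjusted p = 0.046). Mbd4 was at −0.16 in DKO versus Smarca1 KO (adjusted p = 0.337). The call of Mbd4 stood under 6 of 17 alternatives. Tet3, a dioxygenase that oxidises methylcytosine, had the smallest p in Smarca1 KO versus WT (−0.15, adjusted p = 0.206).

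**Figure D5:**
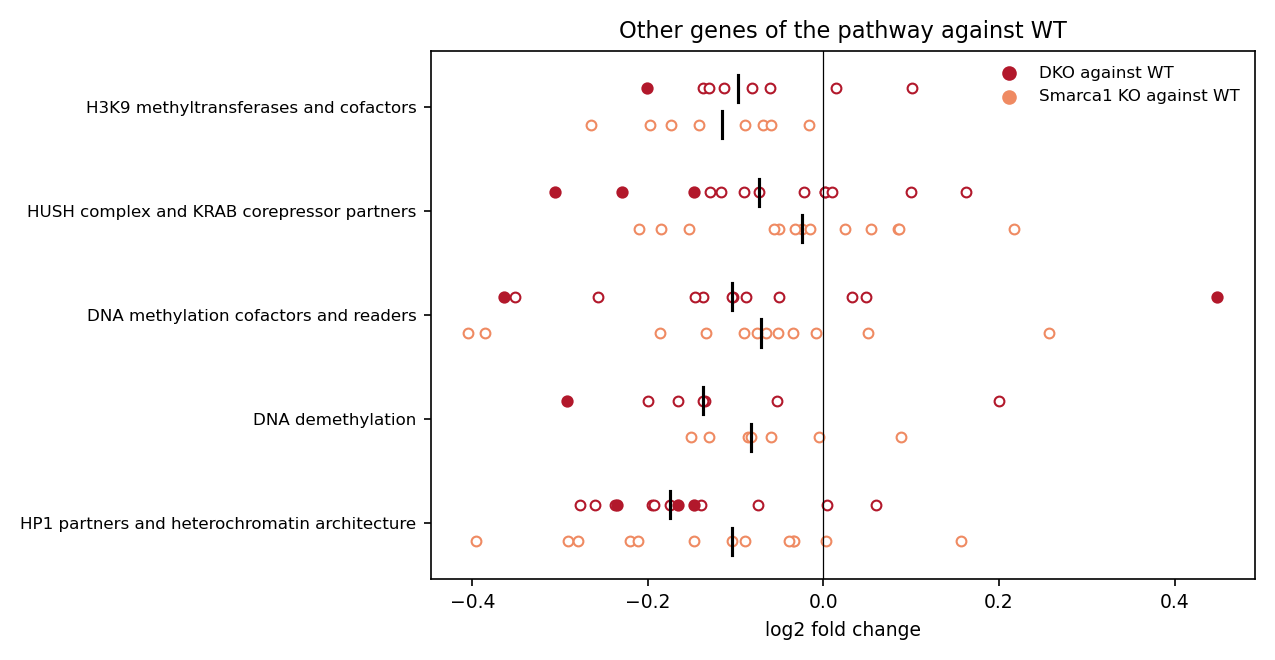
Log2 ratios versus WT of the tested genes of 5 pathway lists, in DKO (upper row of each list) and Smarca1 KO (lower row). Filled points are called, bars are list medians, and the medians lay between −0.175 and −0.024 in all 5 lists.

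Germline genes that promoter DNA methylation is known to silence in other cells were at trace levels in all groups. Summed over 16 genes, the level was 3.54, 2.86 and 3.50 TPM in DKO and 3.95, 3.82 and 3.92 TPM in Smarca1 KO, against 3.13, 2.86 and 3.47 TPM in WT. The range in DKO overlapped that in WT, and all 3 Smarca1 KO libraries lay above both. Brdt, named after its values were seen, was the largest part of the sum in every library. It was at 1.60, 1.33 and 2.21 TPM in Smarca1 KO, against 1.33, 0.919 and 1.79 TPM in WT. These overlapped, and edgeR did not call it there (adjusted p = 0.437). Only 4 of the 16 passed the filter, and 3 were listed at 0 in every library. Tdrd1, which encodes a piRNA pathway protein, fell in DKO versus WT (log2 ratio −2.51 ± 0.54, adjusted p = 0.0201), at 0.103, 0.025 and 0.066 TPM in DKO and 0.079, 0.264 and 0.154 TPM in Smarca1 KO, against 0.341, 0.55 and 0.272 TPM in WT. Sycp1, a synaptonemal complex gene named after its values were seen, had the opposite sign in DKO versus WT (log2 ratio 1.5 ± 0.54, adjusted p = 0.0938), and the median of the 4 tested genes was 0.14. Sycp1 was at 0.597, 0.486 and 0.844 TPM in DKO and 0.847, 0.513 and 0.343 TPM in Smarca1 KO, against 0.274, 0.023 and 0.798 TPM in WT, and the groups overlapped in TPM but not in CPM versus WT. Tdrd1 was at −1.28 in DKO versus Smarca1 KO (adjusted p = 0.286) and at −1.23 in Smarca1 KO versus WT (adjusted p = 0.231). Its call in DKO versus WT stood under 12 of 17 alternatives.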

How the data were processed

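Whole cortical RNA was read as stranded mRNA libraries, per the labels' protocols. The authors deposited 1 table per library made with Salmon (version 1.4.0), and mm10 and DESeq2 are also named, per the submitters' processing notes. Per the file headers, each deposited table gives estimated counts (reads divided among transcripts, not normalised), TPM and lengths. The transcript index and strand setting were not stated there. Of 116546 transcripts, 115977 matched GENCODE M21 (GRCm38), and the rest held 0.104% to 0.116% of reads. Counts were summed to 35498 genes and rounded. All 9 libraries were fitted at once with edgeR 4.0.16 in R 4.3.3 (TMM, factors 0.991 to 1.02; filterByExpr, 15773 genes; quasi-likelihood F test; common biological coefficient of variation 10.2%). The SE is the log2 fold change divided by the square root of F. Levels are TPM summed over transcripts. Scripts were tested on simulated data. In simulated DKO versus WT counts, 30% and 32% of genes changed by log2 −0.3 and 0.3 were called, and 98% of those changed by −1 or 1. A gene not called is therefore not shown to be unchanged.

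The 10 genes and the lists were chosen with earlier results of these data known. All 10 were named, with up to 4 called genes of smallest p per pathway list and comparison or, where none was called, the 1 of smallest p. Levels of other genes are given by the same rule. A result on tissue markers is not reported here. The alternatives were RLE scaling, DESeq2 1.42.0, no filter, effective-length offsets, only the 2 groups compared, a replicate block, a Y-linked covariate, and leaving out libraries.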

Additional observations from a re-analysis of the deposited data

How the results depend on the processing

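Directions in DKO against WT were kept under all 17 alternatives for Trim28, Setdb1, Dnmt1, Dnmt3a, Cbx1 and Cbx5, all lower. They were also kept for Dnmt3b and Mphosph8, both higher, and under 16 of 17 for Uhrf1 and Cbx3. The calls were not kept under all 17. Of the 10 genes, 3 were called in DKO against WT in the fit of all 9 libraries, where 12.0% of all tested genes were called. With RLE size factors 5 were called, and 7 when only the 2 groups were fitted. DESeq2 called 6, against its background of 9.60% lower and 8.71% higher. There were 5 without the 2 libraries with most meninges RNA (replicate 1 of DKO and of Smarca1 KO). Effective-length offsets gave 1, a Y-linked covariate 0, and leaving out each library in turn 0 to 7. The count over all genes also moved with the setting, as given below, so these changes are not particular to the 10 genes. In Smarca1 KO against WT, 4 were called with DESeq2 and 1 (Trim28) without those 2 libraries; leaving out each library gave 0 to 0 there and in DKO against Smarca1 KO. The R2 of Y-linked level on group was 0.771, so much of any effect of sex and of genotype cannot be told apart.

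Of the 57 pathway genes, the count in DKO against WT was 11, and it was 4 with length offsets, 25 with only the 2 groups, 7 with the replicate block, 0 with the Y-linked covariate and 1 to 21 leaving out each library. In DKO against Smarca1 KO the count of 1 became 0 with length offsets, only the 2 groups or the Y-linked covariate, 3 with DESeq2 and 0 to 2 leaving out each library. In Smarca1 KO against WT it was 5 without the 2 libraries, 7 with DESeq2 and 0 to 0 leaving out each library.

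Of all genes, 692 were called in DKO against Smarca1 KO, against 389 with length offsets, 181 with only the 2 groups, 398 without the 2 libraries, 11 with the Y-linked covariate, 1135 with DESeq2 and 286 to 795 leaving out each library. In DKO against WT the 1887 became 3443 with only the 2 groups, 6 with the Y-linked covariate and 450 to 3178 leaving out each library. In Smarca1 KO against WT the 53 became 90 without the filter, 29 with the replicate block, 607 without the 2 libraries, 709 with DESeq2 and 14 to 72 leaving out each library. The causes were not tested.

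No consistent pairing by replicate number was seen. Deviations of same-numbered libraries correlated at −0.0632 to 0.35 and passed 0.1 in 2 of 9 pairs. These were Smarca1 KO with DKO, at 0.35 for replicate 1 and 0.106 for replicate 3. With 3 libraries per group such correlations cannot exclude a pairing. Under the block, the member count in DKO against WT was 2. Leaving out each library, the summed level of the 10 genes in DKO against WT (log2 ratio of means −0.173) ranged from −0.188 to −0.16, that in Smarca1 KO against WT from −0.184 to −0.135 and that in DKO against Smarca1 KO from −0.0385 to 0.0107.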
